A study of Mus musculus with 3 samples.

Results

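Gamma-delta T cells of metastasis-bearing mouse brains were described here from single-cell RNA and surface antibody tags. The cells were chosen by measured RNA values. A cell was counted as one of them when it lay in the authors' T cell cluster of the metastasis-bearing brains, carried Trdc above 0, and had Cd4, Cd8a and Foxp3 at 0. Trdc is the constant region of the T cell receptor delta chain, Cd4 and Cd8a are co-receptors of alpha-beta T cells, and Foxp3 is the transcription factor of regulatory T cells. The rule found 418 cells among 1201 cells of the T cluster, 8443 used cells of metastasis-bearing brains and 11179 used cells of all brains.

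T cells carry an antigen receptor made either of an alpha and a beta chain or of a gamma and a delta chain. In mice, many gamma-delta T cells leave the thymus already set for one of a pair of outputs, interleukin 17 or interferon gamma. Those set for interleukin 17 respond to interleukin 1 and interleukin 23, and live as resident cells in barrier tissues, which include the meninges around the brain. Those set for interferon gamma share granule and NK receptor genes with CD8 T cells and NK cells.

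The brains compared came from homozygous (Cx3cr1-/-) mice and heterozygous (Cx3cr1+/-) mice, all C57Bl/6 females of 2 to 3 months, and no wild type brain was among them. Cx3cr1 is the receptor for fractalkine, and by these labels every mouse lacked at least one working copy. The mice with metastases had received E0771 cells, a mammary tumour line, through the carotid artery about 2 weeks earlier, and naive mice of both genotypes had no metastases. There were 2 brains of each genotype in each state, told apart by hashtags (barcoded antibodies that mark the brain of origin) after all 8 had been pooled in 1 droplet preparation. The labels name 1 brain hemisphere, cell suspensions were enriched for immune cells on a Percoll gradient, and gamma-delta T cells were not sorted.

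Of the 418 cells, homozygous brains 1 and 2 gave 77 and 57, and heterozygous brains 1 and 2 gave 9 and 275. Heterozygous brain 2 thus held 65.8% of them and heterozygous brain 1 held 2.15%. Both deposited tables held the same barcode in 1138 cases, and these were left out, among them 16 that met the rule. The cells had a median of 4853 raw UMIs (counted RNA molecules) in 1823.5 genes. The deposited values are corrected for depth, and after this correction a median of 2205.5 genes stood above 0. A value above 0 therefore does not always mean a raw UMI. Krt8 of the tumour-like cluster was above 0 in 43.1% and Lyz2 of myeloid cells in 91.6% of gamma-delta T cells. The part of the correction and of RNA from other cells of the pool in these 2 shares was not tested. Shares of cells above 0 are given beside those of another cell type for these reasons.

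The label was checked against its markers, which are a description because the rule or the label used them. Trdc lay between 1 and 116 corrected UMIs per cell with a median of 18; just inside the rule, 5 cells held 1 and 8 held 2 corrected UMIs. Just outside it, 32 cells of the cluster carried Trdc together with Cd4, Cd8a or Foxp3, and 272 carried none of these 4 genes. In the NK cluster 176 of 747 cells had Trdc above 0, with a median of 2. Tcrg-C1, a gamma chain constant region, was above 0 in 87.8% of gamma-delta and 2.51% of alpha-beta T cells. Trdv4, a delta variable segment, was above 0 in 59.6% of gamma-delta cells and in 0 of 479 alpha-beta cells, which allows a share of up to 0.626%. Cd163l1, a scavenger receptor that RefSeq also lists as Scart1, was above 0 in 66.7% against 1.04%, and Il17a, the cytokine interleukin 17A, in 62% against 4.38%. The same 4 genes were above 0 in 1.07%, 0.459%, 0.459% and 1.07% of cells of the microglia cluster, which had a median of 8470 raw UMIs. Every one of the 418 cells had Cd3d, Cd3e or Cd3g above 0, and Ncr1, an NK receptor, was above 0 in 14. The markers and the label therefore went together.

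The cells were also read with surface antibodies. Each antibody carries a short DNA tag that is sequenced beside the RNA, and the tags of the antibodies that bear on the T cell gates are shown here as deposited, with the whole tag in capitals because all of it is the barcode.
CD3: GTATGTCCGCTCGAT
CD4: AACAAGACCCTTGAG
CD8a: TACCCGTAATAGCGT

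By the authors' antibody gates, 337 of 418 gamma-delta cells (80.6%) lay inside the T cell gate with neither a CD4+ nor a CD8+ call, as the gate names were read here, against 15 of 479 alpha-beta cells of the same cluster (3.13%). Alpha-beta cells are here the cells of the T cluster with Trdc at 0 and Cd4, Cd8a or Foxp3 above 0. Among gamma-delta cells 3 were gated CD4+, 1 was gated CD8+ and 77 fell outside the T cell gate. In the order homozygous brain 1, homozygous brain 2, heterozygous brain 1 and heterozygous brain 2, used for every run of 4 brain values from here on, the gate held 83.1, 84.2, 66.7 and 79.6% of gamma-delta cells against 0.943, 4.35, 1.79 and 4.03% of alpha-beta cells. The rule had set Cd4 and Cd8a RNA to 0 in gamma-delta cells, and alpha-beta cells were chosen by Cd4, Cd8a or Foxp3 RNA, so these shares are a description without a test. The 272 cells of the T cluster with none of the 4 rule genes also had Cd4 and Cd8a at 0, and 94 of them (34.6%) lay in the gate, or 36.7, 26.7, 36.1 and 35.0% by brain. Gamma-delta cells had the higher share in each brain, a difference that was not tested. Read the other way, 450 cells of the T cluster lay in that gate, of which 337 (74.9%) met the gamma-delta rule, 94 carried none of the 4 rule genes, 15 were alpha-beta and 4 carried Trdc with another rule gene.

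**Figure D1:**
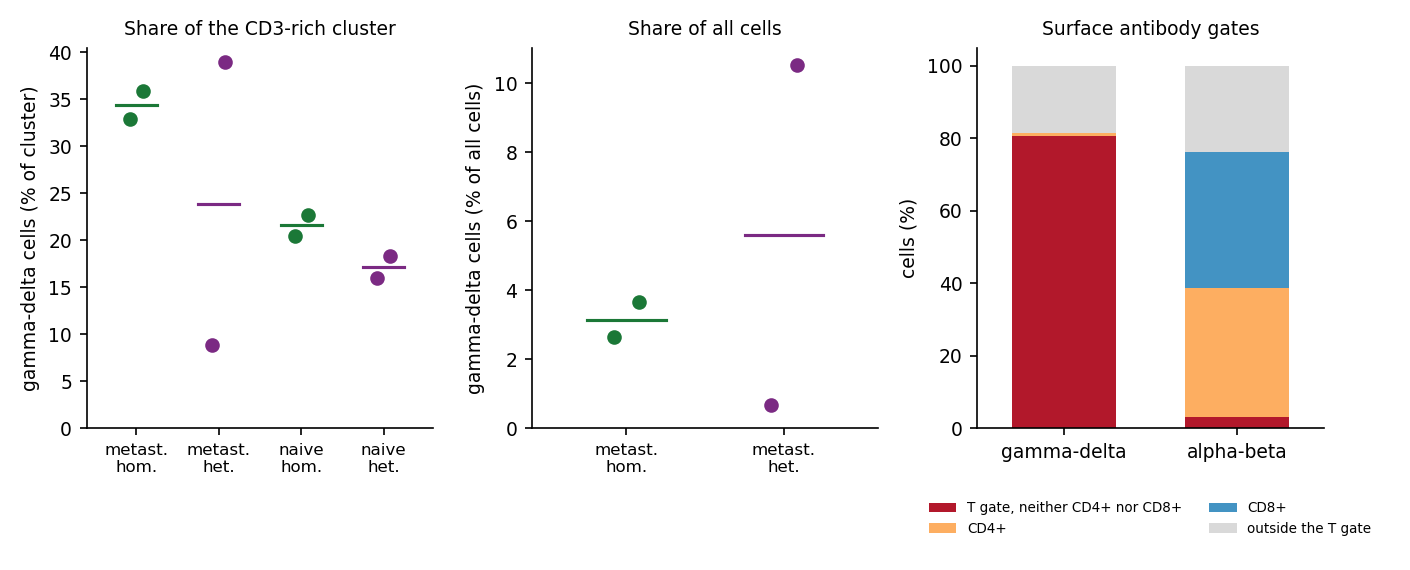
Left and middle, gamma-delta T cells as a percentage of the cluster richest in CD3 genes, in metastasis-bearing (metast.) and naive brains, and of all used cells of metastasis-bearing brains; each point is 1 brain (hom., homozygous; het., heterozygous) with a bar at the mean. Right, stacked bars of the antibody gates over all brains, in which T cells neither CD4+ nor CD8+ make up 80.6% of gamma-delta and 3.13% of alpha-beta cells.

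Gamma-delta T cells made up 32.9 and 35.8% of the T cluster in homozygous brains, against 8.82 and 39.0% in heterozygous brains. The heterozygous brains lay on either side of both homozygous ones. The mean share was 34.4% ± 2.08 in homozygous and 23.9% ± 21.3 in heterozygous brains (SD, n = 2 each), and an exact two-sided permutation test gave p = 1. As a share of all used cells they stood at 2.63 and 3.67% in homozygous brains, against 0.665 and 10.5% in heterozygous brains (exact permutation p = 1, n = 2 each). With 2 brains a genotype no p below 0.333 can be reached, so this design cannot pass 0.05.

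The receptor genes of the 418 cells were spread over several segments. At least one of 5 gamma variable segments was above 0 in 66.3% of the cells and at least one of 4 delta variable segments in 63.4%, while at least one gamma constant region was above 0 in 97.1%. Tcrg-V6 was above 0 in 109 cells (26.1%, against 0.418% of alpha-beta cells). Of these 109 cells, 104 also carried Trdv4, where Trdv4 was found in 249 cells in all. Chains of these 2 segments are known to pair in interleukin 17-producing cells of mouse tissues that include the meninges. Trgv2, another gamma variable segment, was above 0 in more cells than Tcrg-V6, 87 of 249 with Trdv4 (34.9%) and 77 of 169 without it (45.6%). Tcrg-V4 was above 0 in 44 cells and Tcrg-V1 in 27 cells, and 83 cells had several gamma variable segments above 0. The gamma constant regions are close copies of one another and short 3 prime reads can be shared between them, so their single levels are uncertain.

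Whole-set expression was compared by summing the corrected UMIs of each brain and cell set, scaling each set to the same total (CPM, counts per 1e6), and fitting log2(CPM + 10) with limma, with the brain as a block. The fit covered 6548 genes and left out the rule genes and the genes that name the label. Between gamma-delta and alpha-beta T cells of the same cluster, 295 genes were higher in gamma-delta cells (4.51% of the genes tested) and 251 were lower (3.83%) at a Benjamini-Hochberg adjusted p under 0.05, together 546 (8.34%). At an unadjusted p under 0.05 there were 1331 genes (20.3%). The gamma-delta minus alpha-beta difference had the same sign in all 4 brains for 31.3% of genes, which does not ask that the sets be clear of overlap. Of all genes, 49.2% had a positive change, with a median of -0.01. With scaling by median ratios the split turned to 203 higher and 277 lower genes. Alpha-beta cells were deeper, with a median of 6451 raw UMIs, and their rule asks for a co-receptor gene or Foxp3 above 0. Within cells of 4000 to 6500 raw UMIs, 104 genes were higher and 73 lower, and 167 of these 177 calls were shared with the whole comparison. A gene entered the fit with a mean over 10 CPM across both sets, so a gene near 0 in one set was tested only where it was high in the other. For such genes the change and any p are a description. Among them are Blk, Il1r1, Il23r, Sox13, Zbtb16, Kcnk1, 5830411N06Rik, Cd79b and Abi3bp, low in alpha-beta cells. Tnfrsf4, Gzmk and Cd8b1 are among those low in gamma-delta cells. Of 99 called genes that the naming rule picked, 76 still passed without homozygous brain 1, 58 without homozygous brain 2, 98 without heterozygous brain 1 and 82 without heterozygous brain 2; calls that ended are given beside the genes printed with a change.

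Receptor genes came first. Of 16 gamma and delta chain genes, 4 were tested, Tcrg-C4, Tcrg-C2, Trgv2 and Tcrg-V6, with changes of 3.25, 3.12, 2.56 and 2.32 on the log2(CPM + 10) scale. All 4 exceeded 10 CPM on average in gamma-delta cells alone and so entered the fit only by being high there, and their rise is a description. Of 7 tested genes of the alpha-beta receptor and its co-receptors 6 fell (5 of the 6 that were over 10 CPM in both sets). Trac, the alpha chain constant region, stood at 76.1, 109.7, 59.6 and 73.1 CPM in gamma-delta cells, against 729, 812, 711 and 663 CPM in alpha-beta cells. The lowest alpha-beta brain stood above every gamma-delta brain, and the difference was -3.07 ± 0.12 (log2, SE, n = 4 brains; limma adjusted p = 1.17e-06). Trac was above 0 in 34% of gamma-delta and 95.4% of alpha-beta cells. Cd8b1, the CD8 beta chain, was lower, with a change of -4.94 (log2). The rule itself had set Cd8a to 0 and Cd8b1 entered the fit only by being high in alpha-beta cells, so this is a description. Cd5, Cd6 and Cd28, receptors that tune the signal of the alpha-beta receptor, fell as well, with changes of -2.44, -2.38 and -2.54, and Trbc2, a beta chain constant region, fell with a change of -0.89. Trbc2 still stood at 805, 952, 407 and 804 CPM in gamma-delta cells. Trbc1, the other beta chain constant region, stood at 384, 626, 616 and 578 CPM there and did not pass. The call of Cd28 ended without homozygous brain 2.

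Next to the receptor, 10 genes of the CD3 complex and the first signalling steps were tested, of which 4 rose and 1 fell. Blk, a Src-family kinase known from B cells, stood at 235, 151, 228 and 169.5 CPM in gamma-delta cells, against 0.802, 0, 0 and 0.337 CPM in alpha-beta cells. It was near 0 in every alpha-beta set and above 150 CPM in every gamma-delta set, and so entered the fit only by being high there. The difference of 4.30 ± 0.22 (log2, SE, n = 4 brains) is therefore a description. Blk was above 0 in 59.8% of gamma-delta, 0.418% of alpha-beta and 31.9% of B cell cluster cells, which express it too. Of other B cell markers, Cd79a and Ms4a1 were at 0 in gamma-delta cells of all 4 brains, while Cd79b stood at 31.8, 37.1, 19.9 and 43.7 CPM in gamma-delta cells, against 2.41, 3.68, 9.29 and 10.8 CPM in alpha-beta cells, a rise of 1.38. The part of B cell RNA in the Blk result was not tested. Lck, the Src-family kinase that alpha-beta T cells use for receptor signalling, went the other way, with 52.2, 30.9, 19.9 and 46.6 CPM in gamma-delta cells, against 271, 285, 228 and 281 CPM in alpha-beta cells. The sets did not overlap, and the difference was -2.59 ± 0.17 (log2, SE, n = 4 brains; limma adjusted p = 4.00e-05). Cd3g, Cd247 and Fcer1g, which encode signalling chains of the receptor complex, rose by 0.69, 0.91 and 0.43; Fcer1g is also expressed by NK and myeloid cells. The call of Fcer1g ended without any 1 of homozygous brain 1, homozygous brain 2 and heterozygous brain 2 and with median-ratio scaling, and its sign turned against all other cells of the cluster (-0.13).

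The interleukin 17 programme was the list with the most rises. Of its 30 genes 26 were tested, 20 rose and 0 fell. The mean of 11 of the 26 was over 10 CPM in only 1 of the cell sets, and of the 15 over 10 CPM in both sets 10 rose and 0 fell. Il17a itself, part of the label and so untested, stood at 1693, 1727, 636 and 1114 CPM in gamma-delta cells, against 68.2, 0, 139 and 62.3 CPM in alpha-beta cells. Rora, which encodes the nuclear receptor RORalpha, stood at 302, 443, 228 and 443 CPM in gamma-delta cells, against 140.4, 129, 153 and 145 CPM in alpha-beta cells. The sets did not overlap, and the Rora difference was 1.21 ± 0.18 (log2, SE, n = 4 brains; limma adjusted p = 0.00384); against conventional CD4 T cells alone it was 0.52 and did not pass (limma adjusted p = 0.225). Among the other transcription factors, Sox13 and Zbtb16 rose by 2.45 and 2.22, where the call of Zbtb16 ended without either homozygous brain. Sox13 had 0 corrected UMIs in alpha-beta cells, so with a floor of 3 counts over the alpha-beta cells its pooled level was at least 70.0-fold higher in gamma-delta cells.

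Receptors for the cytokines that drive these cells were higher too. Il1r1, the interleukin 1 receptor, stood at 85.1, 52.5, 89.4 and 49.8 CPM in gamma-delta cells. In alpha-beta cells it stood at 0, 1.23, 4.64 and 0.673 CPM. It entered the fit only by being high in gamma-delta cells, and the difference of 2.74 ± 0.27 (log2, SE, n = 4 brains) is a description. Il23r, the interleukin 23 receptor subunit, was higher by 1.63. It too entered the fit only by being high in gamma-delta cells, so this is a description. Il18r1 and Il7r, receptors for interleukins 18 and 7, rose by 1.09 and 1.14; the calls of Il23r and Il7r ended without any 1 of the same 3 brains, homozygous brains 1 and 2 and heterozygous brain 2, and that of Il7r with median-ratio scaling. The chemokine receptor Cxcr6 stood at 724, 650.4, 784 and 677 CPM in gamma-delta cells, against 122, 138, 170.3 and 237 CPM in alpha-beta cells. Its alpha-beta values were far from 0 but below all gamma-delta values, and the difference was 2.06 ± 0.15 (log2, SE, n = 4 brains; limma adjusted p = 5.97e-05).

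Membrane proteins made up several of the largest rises. Tmem176b stood at 619.9, 556, 616 and 610.1 CPM in gamma-delta cells, against 44.1, 4.91, 161 and 24.9 CPM in alpha-beta cells. It was close to level among the gamma-delta sets and varied widely among the alpha-beta sets, and the difference was 3.70 ± 0.42 (log2, SE, n = 4 brains; limma adjusted p = 9.42e-04). Its neighbour Tmem176a rose by 3.60 (limma adjusted p = 7.55e-04), and both were above 0 together in 332 of 418 gamma-delta cells, with Tmem176a alone in 9 and Tmem176b alone in 13. Ltb4r1, the leukotriene B4 receptor, the potassium channel gene Kcnk1, Ramp1, a co-receptor for the neuropeptide CGRP, and Aqp3, a water and glycerol channel, rose by 2.81, 2.74, 2.52 and 2.96. Actn2, an actin-binding alpha-actinin, rose by 3.55 (limma adjusted p = 3.12e-05). 5830411N06Rik, which RefSeq also lists as Scart2, was higher by 1.71, a description for the same reason as Il1r1. Its call ended without any 1 of homozygous brain 1, homozygous brain 2 and heterozygous brain 2. It was above 0 in 14.1% of gamma-delta cells. Il17f, the cytokine closest to Il17a, was above 0 in 22 gamma-delta cells, all of which carried Il17a as well.

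The promoters of some of these genes are shown because RORalpha is known to bind the half-site AGGTCA, which reads TGACCT on the other strand. The letters were searched on both strands of the RefSeq windows of GRCm38.p6, from 250 bases before to 50 after each start. The half-site was in 5340 of 32851 windows (16.3%), and in 8 of 34 windows (23.5%) of the 24 programme genes that matched, which belonged to 6 genes. Il17a and Il17f hold it once and Il23r holds it at 2 places, in capitals below; a match describes the letters and not binding.
Il17a, chr1:20730655-20730954, plus strand: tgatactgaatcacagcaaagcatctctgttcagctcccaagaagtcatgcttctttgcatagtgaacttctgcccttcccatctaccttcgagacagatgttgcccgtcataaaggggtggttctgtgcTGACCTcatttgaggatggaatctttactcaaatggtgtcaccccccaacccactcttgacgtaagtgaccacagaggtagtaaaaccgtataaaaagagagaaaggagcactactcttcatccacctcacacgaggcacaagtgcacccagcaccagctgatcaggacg
Il17f, chr1:20784221-20784520, minus strand: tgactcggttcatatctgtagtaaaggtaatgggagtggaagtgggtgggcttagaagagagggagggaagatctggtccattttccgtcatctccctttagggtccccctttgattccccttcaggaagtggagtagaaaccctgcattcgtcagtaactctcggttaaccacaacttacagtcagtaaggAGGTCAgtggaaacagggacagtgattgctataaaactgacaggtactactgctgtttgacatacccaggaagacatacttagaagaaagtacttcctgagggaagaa
Il23r, chr6:67491806-67492105, minus strand: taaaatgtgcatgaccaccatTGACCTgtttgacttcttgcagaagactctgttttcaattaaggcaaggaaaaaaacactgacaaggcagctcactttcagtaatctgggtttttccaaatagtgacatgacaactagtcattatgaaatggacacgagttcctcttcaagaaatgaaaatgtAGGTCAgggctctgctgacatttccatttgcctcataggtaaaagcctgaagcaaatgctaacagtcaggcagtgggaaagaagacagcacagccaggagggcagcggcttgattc

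Tmem176a and Tmem176b start back to back on chromosome 6, and these windows share 219 bases on opposite strands; neither holds the half-site.
Tmem176a, chr6:48841406-48841705, plus strand: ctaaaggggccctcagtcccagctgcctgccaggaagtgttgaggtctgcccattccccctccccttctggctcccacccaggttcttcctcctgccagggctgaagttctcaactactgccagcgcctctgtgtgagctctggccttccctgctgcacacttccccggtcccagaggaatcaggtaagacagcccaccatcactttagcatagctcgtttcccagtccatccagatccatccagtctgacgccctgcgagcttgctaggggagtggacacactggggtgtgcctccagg
Tmem176b, chr6:48841325-48841624, minus strand: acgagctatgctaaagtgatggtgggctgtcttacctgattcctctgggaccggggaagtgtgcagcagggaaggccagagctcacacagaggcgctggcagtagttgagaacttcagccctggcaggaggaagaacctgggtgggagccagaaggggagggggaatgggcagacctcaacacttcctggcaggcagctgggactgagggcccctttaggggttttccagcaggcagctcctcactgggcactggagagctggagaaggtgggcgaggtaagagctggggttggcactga

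**Figure D2:**
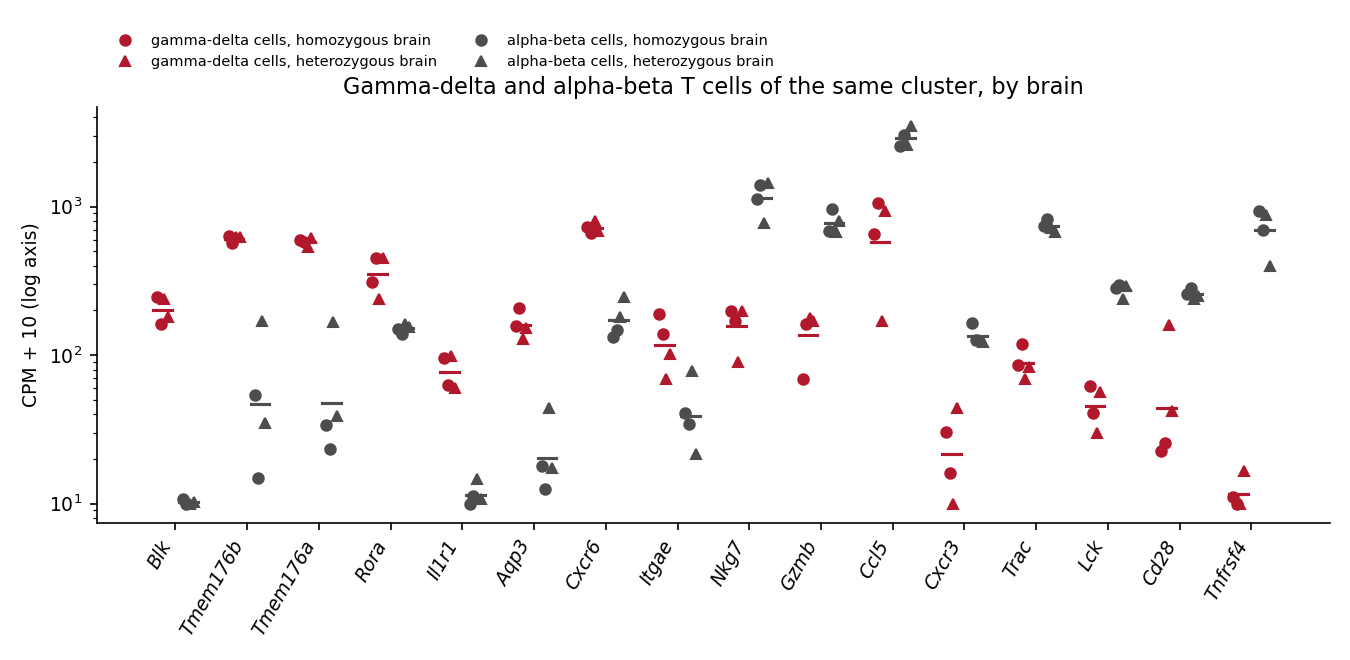
CPM of named genes in gamma-delta and alpha-beta T cells, 1 point for each of 4 brains and cell set, on a log axis of CPM + 10, with a bar at the mean on that axis. Circles are homozygous and triangles heterozygous brains. Blk, Il1r1 and Tmem176b lay higher in gamma-delta cells of every brain, and Trac, Tnfrsf4 and Nkg7 lay lower.

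The 10 largest rises also included Bcl2a1a and Abi3bp, which are outside the lists, and Serpinb1a, which is in the interleukin 17 list. Bcl2a1a, an anti-apoptotic member of the Bcl2 family, rose by 3.57 (limma adjusted p = 3.12e-05), though it has near-identical copies that reads may be shared with. Serpinb1a, an inhibitor of granule proteases, rose by 3.28 (limma adjusted p = 3.14e-05). Abi3bp, which encodes a matrix-associated protein, stood at 89.7, 104, 9.93 and 99.9 CPM in gamma-delta cells and at 0, 0, 0 and 0 CPM in alpha-beta cells. Its pooled level was at least 183-fold higher in gamma-delta cells, with the same floor of 3 counts. Heterozygous brain 1 had the lowest value, and without homozygous brain 2 the difference no longer passed.

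Co-stimulatory receptors were lower. Of 9 co-stimulatory genes 6 fell (5 of the 8 that were over 10 CPM in both sets) and 0 rose, with a median change of -2.54 (log2). The alpha-beta set was picked in part by Foxp3. It held 107 Foxp3-positive cells beside 134 conventional CD4 and 235 CD8 T cells, and the falls of this paragraph are against this mix. Tnfrsf4 (OX40) stood at 1.14, 0, 0 and 6.7 CPM in gamma-delta cells, against 919.9, 690.3, 869.9 and 388 CPM in alpha-beta cells. It was below 10 CPM in every gamma-delta set and above 300 CPM in every alpha-beta set, and so entered the fit only by being high in alpha-beta cells. The difference of -5.89 ± 0.29 (log2, SE, n = 4 brains) is therefore a description. Tnfrsf4 was above 0 in 4 of 418 gamma-delta cells and in 41.3% of alpha-beta cells. Tnfrsf9 (4-1BB) and Tnfrsf18 (GITR) fell, with changes of -3.68 and -2.97, and Cd2, Cd28 and Cd27, with changes of -2.71, -2.54 and -1.84. The same 6 fell within cells of 4000 to 6500 raw UMIs. Of 7 tested co-inhibitory receptors 3 fell (1 of the 5 that were over 10 CPM in both sets) and 0 rose. Those that fell were Ctla4, Lag3 and Entpd1, with changes of -2.83, -2.41 and -2.26. Without homozygous brain 2 the calls of Cd28 and Lag3 ended. Pdcd1, which encodes PD-1, did not pass, with 0.20 (limma adjusted p = 0.625).

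Genes of the interferon gamma and cytotoxic programme were lower. Of 20 genes 19 were tested, 13 fell (12 of the 17 that were over 10 CPM in both sets) and 0 rose, with a median change of -2.01 (log2). Nkg7, a granule protein of cytotoxic cells, stood at 187, 161, 79.4 and 187 CPM in gamma-delta cells, against 1120.4, 1383, 762 and 1436 CPM in alpha-beta cells. The sets did not overlap, and the difference was -2.88 ± 0.11 (log2, SE, n = 4 brains; limma adjusted p = 1.17e-06). Gzmb, which encodes granzyme B, fell with a change of -2.51, Prf1, which encodes perforin, fell as well, and Gzmk had 0 corrected UMIs in gamma-delta cells, so its pooled level was at least 49.8-fold lower. Ifng stood at 17, 7.72, 99.3 and 13.7 CPM in gamma-delta cells, against 309.6, 119, 18.6 and 533 CPM in alpha-beta cells. The sets overlapped, with the 9-cell brain highest among the gamma-delta sets and lowest among the alpha-beta sets, and the difference did not pass, with -2.25 (limma adjusted p = 0.169). The alpha-beta set held 235 CD8 T cells. Against conventional CD4 T cells alone, Nkg7 differed by -0.69 (limma adjusted p = 0.187) and Ccl5 by -0.25 (adjusted p = 0.867). Within cells of 4000 to 6500 raw UMIs 7 of the 13 still passed.

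Genes of residence and migration moved both ways. Of 14 tested, 8 rose and 3 fell. Itgae, the CD103 integrin chain that holds T cells at epithelia, stood at 181, 129.8, 59.6 and 92.3 CPM in gamma-delta cells, against 30.5, 24.6, 68.1 and 11.4 CPM in alpha-beta cells. It was higher in gamma-delta cells of 3 brains and lower in heterozygous brain 1, and the sets overlapped. The difference was 1.58 ± 0.38 (log2, SE, n = 4 brains; limma adjusted p = 0.0342), and it no longer passed without homozygous brain 1, homozygous brain 2 or heterozygous brain 2, nor with median-ratio scaling. Gpr183, S100a4, Cd44, Rgs1, Rgs2 and Cxcr4 rose by 0.56 to 1.11. Cxcr3 and Itga4, which guide effector T cells into inflamed tissue, were among those that fell, with changes of -2.63 and -1.15. Of 9 genes of naive and circulating T cells 3 fell (2 of the 7 that were over 10 CPM in both sets). Among the 3 were the lymph node homing receptor Ccr7, with a change of -2.56, and Dapl1, with a change of -1.95. Without homozygous brain 2 the calls of Cd44, Rgs1, Cxcr4, Itga4 and Dapl1 ended. Those of Cxcr4 and Itga4 also ended without homozygous brain 1 or heterozygous brain 2, that of Rgs1 without homozygous brain 1, and those of Rgs1 and Cxcr4 with median-ratio scaling.

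Cell cycle genes were lower in the full comparison. Of 14 proliferation genes 11 fell (6 of the 9 that were over 10 CPM in both sets), among them Mki67 with a change of -2.02, but 0 passed within cells of 4000 to 6500 raw UMIs, where Top2a and Hmgb2 changed sign. Of 24 interferon-stimulated genes 4 fell (Ifi27l2a, Slfn1, Iigp1 and Isg20) and 0 rose. Of the 23 that were over 10 CPM in both sets 3 fell. Of 15 immediate early and stress genes 8 rose, among them Jun by 0.87 and Fosb by 1.12, and 4 rose within that window. Such genes also respond to the dissociation of tissue, and their part in the difference was not tested. Among markers of other cells, Cd79b rose by 1.38 and Pecam1 by 1.08, and Ms4a4c fell with a change of -1.94; the summed CPM of 6 monocyte and macrophage markers was 328 to 477 in gamma-delta and 391 to 494 in alpha-beta sets. The calls of Mki67, Fosb, Iigp1, Isg20, Cd79b, Pecam1 and Ms4a4c ended without homozygous brain 2, those of Iigp1, Isg20, Cd79b and Pecam1 also without homozygous brain 1, and that of Cd79b without heterozygous brain 2 too.

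Within the 418 cells, the cytokine genes of the 2 programmes were not found above 0 in the same cell. Il17a was above 0 in 259 cells and Ifng in 28, and 0 cells carried both, which allows a share of up to 0.718%; 131 cells carried neither. When the genes above 0 were counted in each cell, gamma-delta cells had a median of 18 of 30 interleukin 17 genes and 3 of 20 interferon gamma and cytotoxic genes. CD8 T cells had medians of 4 and 10 and the NK cluster of 3 and 13. Of the gamma-delta cells 351 (84.0%) had more genes of the interleukin 17 list, 66 (15.8%) had more of the interferon gamma list, and 1 had as many of each. The shares with more interferon gamma genes were 18.2, 10.5, 22.2 and 16%, from 14 of 77, 6 of 57, 2 of 9 and 44 of 275 cells. These groups were drawn from the genes themselves and their differences are a description without a test.

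The 66 cells leaning to interferon gamma had a median of 5390 raw UMIs and the 351 leaning to interleukin 17 had 4821. The 66 held 1 to 7 interleukin 17 genes, with a median of 3, and the 351 held 3 to 25, with a median of 18. Genes outside both lists also split. Trdv4 was above 0 in 1 of the 66 and 248 of the 351, and Tcrg-V6 in 0 and 109. Tcrg-V1 was above 0 in 15 of the 66 (22.7%) and in 12 of the 351 (3.42%). The NK receptor Klrb1c was above 0 in 22 of the 66 and 3 of the 351. Cd3e was above 0 in 90.9 and 92.0% of them, and 51 and 285 lay in the antibody gate of T cells that are neither CD4+ nor CD8+. The median Trdc was 9.5 in the 66 and 20 in the 351, and Ncr1 was above 0 in 13 of the 66 and 1 of the 351. The label gene Tcrg-C1 was above 0 in 26 of the 66 (39.4%) and 340 of the 351 (96.9%). How many of the 66 are NK cells with Trdc reads was not tested.

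**Figure D3:**
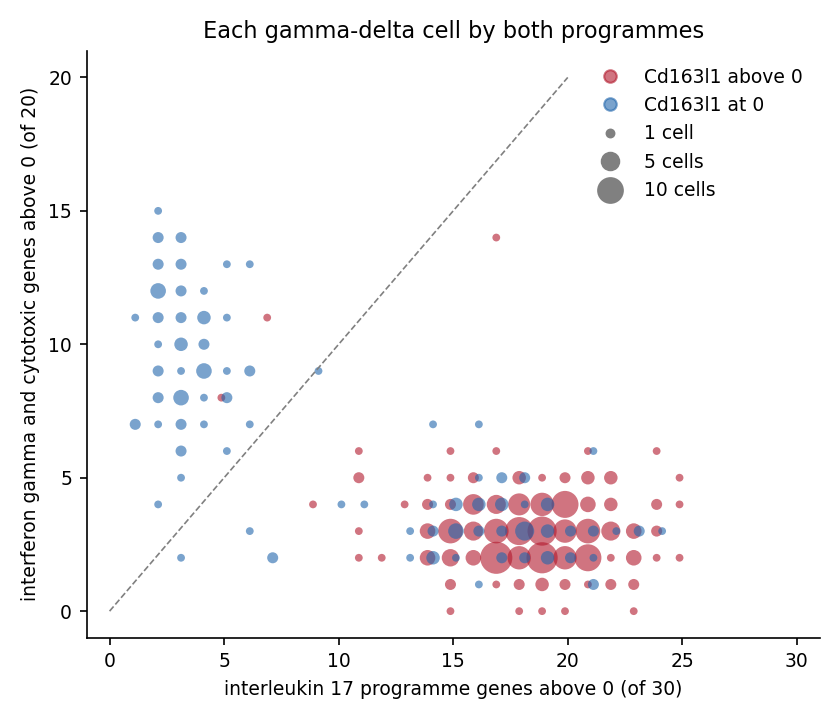
Each of the 418 gamma-delta T cells by its number of interleukin 17 genes (x axis, of 30) and of interferon gamma and cytotoxic genes (y axis, of 20) above 0; the area of a point is the number of cells, colour marks Cd163l1, and the dashed line marks equal numbers. A large group of 351 cells lies right of the line and a smaller group of 66 cells, few with Cd163l1, lies above it.

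Splitting the cells by Trdv4 gave a related picture, with a median of 4863 raw UMIs in 249 cells with Trdv4 (quartiles 4073 and 5734) and 4841 in 169 cells without (quartiles 4015 and 5785). The median number of genes per cell was 1849 with Trdv4 and 1792 without it. Cd163l1 was above 0 in 94.4% of cells with Trdv4 and 26% of cells without it, and Cxcr6 in 97.6% of cells with Trdv4 and 63.3% of cells without it. Il17a was above 0 in 74.3% of cells with Trdv4 and 43.8% of cells without it, and in each of the 4 brains the cells with Trdv4 had the higher share. Il1r1 (47.4 and 16.6%) and Blk (74.7 and 37.9%) leaned the same way in all 4 brains. Pdcd1 was above 0 in 53% of cells with Trdv4 and 26.6% of cells without it.

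Other genes leaned to the cells without Trdv4. Nkg7 was above 0 in 4.42% of cells with Trdv4 and 40.8% of cells without it, and Ccl5, a chemokine of cytotoxic cells, in 15.7% of cells with Trdv4 and 47.3% of cells without it. Not all cytotoxic genes leaned this way, as Gzmb was above 0 in 26.9% of cells with Trdv4 and 21.9% of cells without it. 5830411N06Rik was in 0 of 249 cells with Trdv4, which allows a share of up to 1.20% by the limit of 3 counts (the upper end of the exact 95% interval is 1.47%), and in 34.9% of cells without it. Cd163l1 and 5830411N06Rik, a pair of related scavenger receptor genes, were above 0 together in 6 cells and alone in 273 and 53 cells. Few cells thus carried both.

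**Figure D4:**
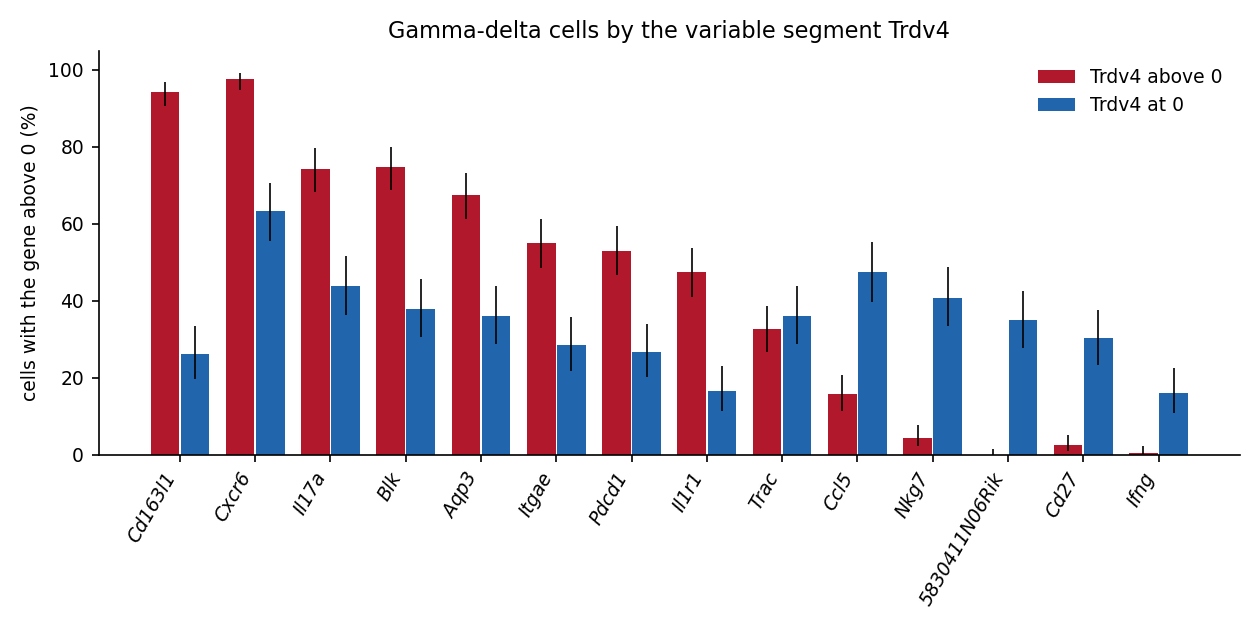
Percentage of gamma-delta T cells with each gene above 0, in 249 cells with Trdv4 and 169 cells without it; bars are all brains pooled and error bars are exact 95% intervals for counting error. Cd163l1, Cxcr6 and Il17a lie higher in cells with Trdv4, and Nkg7, Ccl5 and 5830411N06Rik lie higher in cells without it.

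Between genotypes, homozygous minus heterozygous, 0 of 6356 genes passed in gamma-delta cells with limma (0% in either direction), and 134 genes (2.11%) had an unadjusted p under 0.05. Cx3cr1, the gene the genotypes differ in, stood at 114 and 31.6 CPM in the microglia cluster of homozygous brains, against 1363 and 1464 CPM in that of heterozygous brains, so its level there went with the labels. It was above 0 in 7 of 418 gamma-delta cells (1.67%, against 89.4% of the microglia cluster) and was too low to test. Its levels in gamma-delta cells were 2.27, 4.63, 19.9 and 1.92 CPM, the highest from 1 of 9 cells. The precision is limited by 2 brains a genotype, one of which gave 9 cells.

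Il17a, which has no role in the choice of brains, stood at 1693 and 1727 CPM in gamma-delta cells of homozygous brains, against 636 and 1114 CPM in those of heterozygous brains. The genotypes did not overlap, as was true of 2037 genes (32%). The difference was 1.01 ± 0.22 (log2, SE, n = 2 brains a genotype; limma adjusted p = 0.877) and it passed in 5 of 16 alternatives, which were weighting by cells and leaving out each brain in turn; the limma adjusted p ranged from 2.26e-04 to 0.880. Heterozygous brain 1, with 9 cells, had the lowest value, and without it the difference was 0.61 (limma adjusted p = 0.0462). Il17a was above 0 in 66.5% of homozygous and 57.8% of heterozygous cells as means over brains (exact permutation p = 0.333, n = 2 each, the smallest possible). Cells with Trdv4 made up 69.3% in homozygous and 44.5% in heterozygous brains, and cells with Cd163l1 78.4% in homozygous and 63.9% in heterozygous brains, with the same p. The heterozygous share with Trdv4 rests on 3 of 9 cells and 153 of 275 cells, and leaving out heterozygous brain 1 took the Trdv4 difference of 24.8 percentage points to 13.6, while leaving out heterozygous brain 2 took it to 35.9.

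The 10 genes with the smallest p included Rgs1, Ifit3, Jund, Gimap3, Ifi27l2a, Ifit1, Fos, Malat1 and Ucp2 beside Il17a, with adjusted p of 0.806 to 0.877. Ifit3, an interferon-stimulated gene, stood at 262 and 218 CPM in homozygous brains, against 109 and 93.5 CPM in heterozygous brains, a difference of 1.16 ± 0.21 (log2, SE, n = 2 brains a genotype; limma adjusted p = 0.806). Gimap3, a GTPase of lymphocytes, stood at 94.2 and 88.1 CPM in homozygous brains, against 258 and 187 CPM in heterozygous brains, a difference of -1.19 ± 0.23 (log2, SE, n = 2 brains a genotype; limma adjusted p = 0.806). Both were clear of overlap, and neither passed. Of 23 tested interferon-stimulated genes 18 had a positive difference and 15 had no overlap, with a median of 0.40 on the log2 scale, against 0.01 for all genes, and 50.8% of all genes had a positive difference. The genes without overlap include Gbp2 and Gbp7, which were lower in homozygous brains. Without heterozygous brain 1, which leaves 1 heterozygous brain, the median of the 23 was 0.22, with 16 positive. Ifit3 then differed by 1.27, Gbp2 by -1.61 and Igtp by -1.20. Without heterozygous brain 2, which leaves the 9-cell brain alone in its group, the median was 1.02, with 19 positive.

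**Figure D5:**
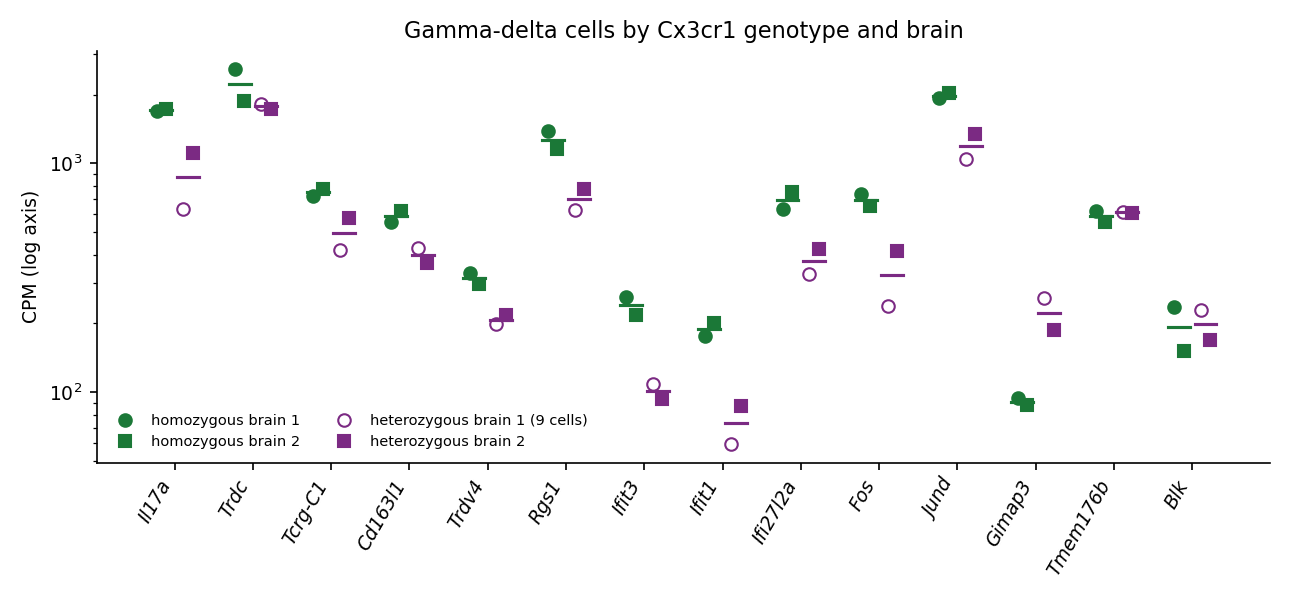
CPM of named genes in gamma-delta T cells of homozygous and heterozygous brains, 1 point for each brain, on a log axis, with a bar at the mean; the open circle is the brain with 9 cells. The 2 genotypes do not overlap for Il17a, Ifit3 and Gimap3, and no gene passed the test.

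In naive brains the same gene rule was applied to the cluster with the most CD3 genes, 248 cells of which 38.7% carried Ncr1, so this cluster held NK-like cells as well as T cells. It found 48 cells, or 20.5 and 22.7% of the cluster in homozygous and 15.9 and 18.3% in heterozygous naive brains. The mean share was 29.1% ± 13.8 in metastasis-bearing and 19.3% ± 2.88 in naive brains (SD, n = 4 each), with an exact permutation p of 0.171. This gap of 9.78 percentage points became 16.6 when metastasis-bearing heterozygous brain 1 was left out and 6.51 when metastasis-bearing heterozygous brain 2 was. With Trdc of 2 or more corrected UMIs the shares were 28.8% in metastasis-bearing and 12.9% in naive brains, a difference of 15.9 points. As a share of the cells with a CD3 gene and no Ncr1, the gap was narrower. These shares were 29.4% ± 13.6 in metastasis-bearing and 22.0% ± 5.40 in naive brains (SD, n = 4 each). Levels cannot be set against each other, since the 2 tables were corrected separately. Limited to cells with a CD3 gene and no Ncr1, Trdv4 was above 0 in 60.9% of 407 metastasis cells and in 19 of 28 naive cells (67.9%), and Cd163l1 in 68.6 and 85.7%. Il17a was above 0 in 63.9% of the metastasis cells and in 10 of the 28 naive cells (35.7%, exact 95% interval 18.6 to 55.9%). The 407 are not all among the 418 cells, since Il17a was above 0 in 260 of the 407 and in 259 of the 418. These shares are given side by side without a test.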

How the data were processed

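Cells of 8 brains were pooled in 1 preparation with an RNA library, a library of 35 antibody tags and a library of 8 hashtags. Per the submitters' processing notes, Cell Ranger 3.1, Seurat 3.1.1 and the mm10 genome were used upstream. The deposited RNA values are natural logs (ln) of corrected UMI counts plus 1, which the authors corrected for depth separately in each state; the exponential minus 1 was whole within 1e-06 for all values. In the authors' metadata, raw UMIs, genes and tag UMIs of a cell are counts and the hashtag margin is a score; clusters and antibody gates are theirs too. Raw counts per gene were not used here, so cells could not be thinned to equal depth. Per the file headers all used cells were singlets, and hashtags cannot show doublets within a brain.

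The members, gene lists and tests were chosen with earlier results of these data known. Genes with a mean over 10 CPM and 20 or more summed corrected UMIs entered lmFit and eBayes (with trend) of limma 3.58.1, run under R 4.3.3, and p-values were adjusted over all genes tested by Benjamini-Hochberg, threshold 0.05; exact tests used scipy 1.17.1 and Python 3.11.15. The model unit was the brain, 4 in all, and brains from separate mice are the replicates. Gamma-delta and alpha-beta sets of a brain share its cells' preparation and were paired by design; the same-brain correlations of their deviations were 0.00608 to 0.0796. Named genes are the label genes, members of the lists past the threshold or highest in gamma-delta cells, and the 10 largest rises and falls, or the 10 smallest p where under 5 passed. A few others (Pdcd1, Il17f and genes shown by cell) were named from lists after their values were seen. Shares above 0 carry exact Clopper-Pearson or Wilson 95% intervals in the tables, which cover counting error only, and floors are 3 counts. Tested on simulated data, the gamma-delta against alpha-beta fit recovered 41.8% of 2-fold and 86.4% of 4-fold changes, and the genotype fit 9.2 and 57.2%. The simulated sums had the same spread for every gene, no brain effect and no added spread for sets of few cells. These rates therefore do not measure the sensitivity in the real data. Promoters are RefSeq windows of GRCm38.p6. Results for a few genes are not reported here, nor is the planned test of antibody gates, since both cell sets were chosen on co-receptor RNA. Alternatives are given at the end.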

Additional observations from a re-analysis of the deposited data

Results flagged for a closer look

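Of 23 values tested over 4 brains, 1 had a brain far from the others. The gamma-delta minus alpha-beta difference of Abi3bp was 0.99 (log2) in heterozygous brain 1, which gave 9 gamma-delta cells, and 3.32 to 3.50 in the other brains. The gap was 0.925 of the whole range, above the 95% critical value of Dixon's test for 4 samples. Chance flags about 1 in 20 such groups. What set this brain apart was not tested.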

How the results depend on the processing

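Against alpha-beta cells the 546 calls (295 higher, 251 lower) became 195 higher and 111 lower in cells of 3000 to 10000 raw UMIs, 104 and 73 in cells of 4000 to 6500, 131 and 132 without the variance trend, 794 and 593 with sets weighted by cells, and 146 and 83 against conventional CD4 T cells alone; with a pseudocount of 1 CPM 123 genes were lower. Leaving out 1 brain gave 99 to 622 higher and 71 to 485 lower genes: the lowest without homozygous brain 2 and the highest without heterozygous brain 1. Without the replicate block, that is with brains unpaired, 563 genes passed (310 higher, 253 lower), of which 487 were shared. Of the 99 named calls, 60 passed in the narrower window, 86 against CD8 T cells and 53 against conventional CD4 T cells. The windows of 4000 to 6500 UMIs and the CD8 or CD4 sets alone were chosen after seeing the data.

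Signs turned, with the cause not tested, for Ccl4 (0.11), Klrd1 (0.37), Klrc1 (0.88), Xcl1 (2.05) and Klre1 (1.12) against conventional CD4 T cells alone, for Fcer1g against receptor-positive cells (-0.13) and all other cells of the cluster (-0.13), and for Top2a (0.30) and Hmgb2 (0.029) in the narrower window. The share of the T cluster by genotype ranged from -4.57 to 25.6 points over left-out brains. The share of all cells ranged from -7.39 to 2.49 and was 0.00502 outside the Krt8-high clusters. By genotype, the share of cells with Ifng ranged from -15.9 to 0.118 over left-out brains, and that with Cxcr6 was -6.92 and -6.93 in the wider and narrower windows. The difference outside the T cell gate, gamma-delta minus alpha-beta, ranged from -5.22 to 6.19 points and was -0.0886 with all deposited cells. The genotype comparison had 0 calls, but 29 higher and 38 lower with weights, 1 lower in the narrower window (Cxcl10), and 2 to 1281 higher and 2 to 519 lower with a brain left out; the highest counts leave the 9-cell brain alone in its group, with its spread taken from the other group. In all, 132 of the other values for shares, gates and counts and 1981 for named genes kept their side of the threshold or their size, while 30 of the first kind moved and, among the second, a call was lost in 278 and gained in 35. Few cells in heterozygous brain 1 and 2 brains a genotype limit the precision.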
